A study of Mus musculus with 45 samples.

Results

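The 9 genes described here mark eosinophils or draw them into tissue. They were chosen by name and looked up by symbol, and all 9 were found among the 50600 genes of the count and TPM tables of mouse distal colon. TPM is a transcript level corrected for transcript length and library depth. Prg2 encodes major basic protein and Epx eosinophil peroxidase, both stored in the eosinophil granule. Rnase2a and Ear2 belong to the mouse family of eosinophil-associated ribonucleases. Siglecf encodes an inhibitory lectin of the eosinophil surface, Ccr3 the eotaxin receptor and Il5ra the alpha chain of the interleukin 5 receptor. Ccl11 (eotaxin-1) and Ccl24 (eotaxin-2) encode 2 chemokines that bind CCR3 and come from other cells.

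Eosinophils leave the bone marrow under interleukin 5 and settle in the healthy gut wall, where CCR3 and eotaxin hold them in the lamina propria. Interleukin 13 and interleukin 4, the type 2 cytokines, raise eotaxins in tissue through STAT6, while interleukins 12 and 23 belong to the type 1 and type 17 arms. Several of these genes are not private to the eosinophil in mice. Siglecf is also carried by intestinal tuft cells, ribonucleases of the Ear2 family by some macrophages and monocytes, and Il5ra by some B cells.

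In the cohort labelled D77, 5 libraries came from Il10 knockout mice given anti-p40, an antibody to the subunit shared by interleukins 12 and 23, and 5 from Il10 knockout mice given vehicle. In the first cohort, all treated mice were also Il10 knockouts, with 10 vehicle libraries, 7 libraries at 10 mg/kg and 9 libraries at 30 mg/kg of compound 13. Per the series title the compound selectively blocks GPR4, a proton-sensing receptor. Il10 knockout mice lack interleukin 10 and are prone to colitis, and 8 untreated wild-type (WT) libraries were their reference, so genotype and vehicle dosing cannot be told apart. The sources used here give no strain, age, sex or batch, and do not say whether each library is a separate animal. A p-value therefore reflects the scatter of libraries, which could be technical. In 1 further knockout library the title and the treatment field gave different doses, and it entered no comparison.

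Total counts per library ran between 22682471 and 36279743. Il10 had 0 counts in every knockout library and 10 counts summed over the 8 WT libraries, 4 of which held none. Replicate libraries differed by more than counting noise in every pair (chi-square of at least 8.12 per degree of freedom). The summed level of 7 smooth muscle markers ran from 237 to 6255 TPM over the knockout vehicle libraries and from 3770 to 8698 TPM over the WT libraries, so the tissue pieces differed in muscle marker level within and between groups. In whole tissue, fewer cells of a type and less RNA per cell cannot be told apart.

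The promoters of the ribonuclease genes Rnase2a and Ear2 are printed because Rnase2a rose with anti-p40 and the smaller difference of its relative did not pass the test. Capitals mark the bases that are identical between both in their alignment. Each line is the 250 bases before the gene's start, 5′ to 3′ on the gene's strand, from RefSeq on GRCm38.p6, at chr14:51256113-51256362 (minus strand) for Rnase2a and chr14:44102404-44102653 (plus strand) for Ear2.
Rnase2a: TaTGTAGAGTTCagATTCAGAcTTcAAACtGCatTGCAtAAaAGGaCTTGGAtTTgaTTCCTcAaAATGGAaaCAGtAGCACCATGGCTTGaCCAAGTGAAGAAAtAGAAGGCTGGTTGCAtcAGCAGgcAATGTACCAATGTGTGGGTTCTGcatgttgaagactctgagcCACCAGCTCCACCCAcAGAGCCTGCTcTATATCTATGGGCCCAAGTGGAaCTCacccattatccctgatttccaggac
Ear2: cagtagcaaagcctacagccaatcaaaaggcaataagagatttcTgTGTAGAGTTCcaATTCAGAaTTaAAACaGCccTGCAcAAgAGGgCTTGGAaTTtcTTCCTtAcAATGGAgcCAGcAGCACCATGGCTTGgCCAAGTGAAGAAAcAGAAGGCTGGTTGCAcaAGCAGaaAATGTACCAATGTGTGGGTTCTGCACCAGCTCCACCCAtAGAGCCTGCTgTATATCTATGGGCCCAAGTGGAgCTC
Of the 206 aligned bases 178 were identical (86.4%). The longest run found in both sequences, sought apart from the alignment, was 25 bases, and its end is not in capitals for Rnase2a. RefSeq's table held promoters for 6 of the 9 genes, all but Prg2, Ccl11 and Ccl24. On either strand, neither ribonuclease promoter held the STAT-type motif TTCNNNGAA (present in 7.02% of 32851 promoters of this length), the GATA-type motif TGATAA (7.94%) or the TATA box TATAAA (12.4%).

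As eosinophil markers the genes were sparse. Epx, the gene most restricted to this cell, had 17 counts over all 45 libraries and reached only 7 of them. Ccr3 had 66 counts in 22 libraries, and Prg2 had 304 counts in 37 libraries. Mean levels over the 44 grouped libraries were 0.005 TPM for Epx, 0.0216 TPM for Ccr3 and 0.166 TPM for Il5ra, against 4.70 TPM for Ccl11 and 3.31 TPM for Ccl24. By summed count the best measured of the 9 genes were Ccl11 (3632), Siglecf (2567) and Ccl24 (1540), and the defining granule enzyme was near 0 in every group.

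**Figure D1:**
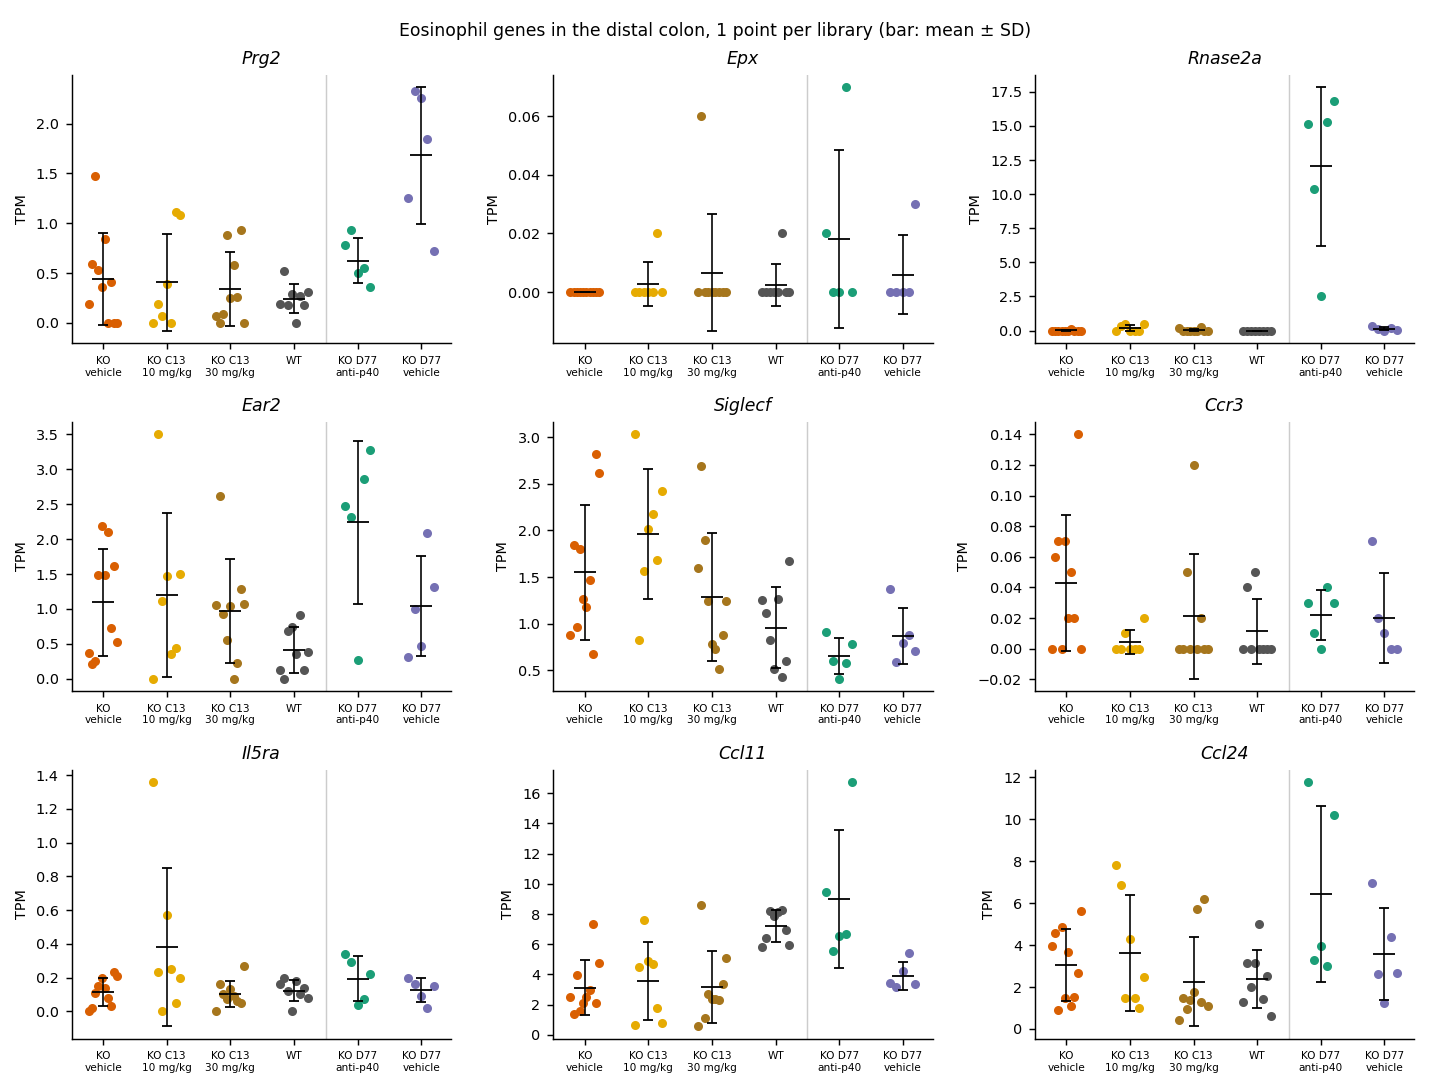
Level of each of the 9 genes in TPM, 1 panel per gene and 1 point per library, with the mean and SD of each group. Rnase2a stands at 2.52 to 16.8 TPM in the anti-p40 libraries and at 0 to 0.5 TPM in all others, and Ccl11 is lower in most first-cohort knockout libraries than in WT.

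The D77 cohort held 3 of the calls. Relative to D77 vehicle, Rnase2a and Ccl11 rose, Prg2 fell, and the other 6 genes did not pass the test. In edgeR's quasi-likelihood test with Benjamini-Hochberg adjustment over all genes tested (adjusted p under 0.05, called edgeR from here on), 6 of the 9 genes had enough counts to be tested and 3 were called, against a background of 16.7% of 16470 genes. Rnase2a had enough counts through the anti-p40 group alone, so the share of called members is a description and no test against that background.

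In knockout vehicle relative to WT colon, Ccl11 fell, and neither Siglecf nor Ccl24 passed the test. These were the 3 genes with enough counts, and 49.2% of the 16435 genes tested were called, so 1 call among 3 is near the background.

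At either dose of compound 13 none of the 9 genes was called against vehicle. At 10 mg/kg 5 of the 9 were tested and 2 of 16948 genes (0.0118%) were called by edgeR, 66 by DESeq2 and 20 by limma on log2(TPM + 1). At 30 mg/kg the same 5 were tested and 0 of 16948 genes (0.0%) were called by edgeR, 1004 genes having an unadjusted p under 0.05 and DESeq2 calling 3. Both doses share the vehicle libraries.

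The granule protein gene Prg2 (chromosome 2, 84980461 to 84983632, GRCm38, plus strand) was read with 9, 14, 7, 6 and 4 counts in the 5 anti-p40 libraries, against 15, 26, 30, 22 and 13 counts in the 5 D77 vehicle libraries. The levels averaged 0.624 ± 0.228 TPM with anti-p40 and 1.68 ± 0.688 TPM with D77 vehicle (SD, n = 5 each). In CPM (counts relative to the library total) scaled by edgeR's TMM factors, 4 of 5 anti-p40 libraries lay below every vehicle library, and in unscaled CPM 3 of 5 did, since libraries 1 (0.362 CPM) and 2 (0.437 CPM) were above vehicle library 5 (0.358 CPM). Prg2 fell by 1.51 ± 0.40 (SE) on the log2 scale with anti-p40 (edgeR adjusted p = 0.0264), and the authors' deposited table gives -1.55 with an adjusted p of 0.00877. Without anti-p40 library 3, 4 or 5, or without vehicle library 2, the edgeR adjusted p was above 0.05, at most 0.0589, with log2 fold changes from -1.73 to -1.32 over all libraries left out. On log2(TPM + 1), which understates changes of low genes, it was -0.69 (limma adjusted p = 0.0419). The counts behind this call were 40 with anti-p40 and 106 with vehicle.

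In the first cohort Prg2 was lower and patchy. Its counts were 0 to 15 (median 4.5) in knockout vehicle, 0 to 13 (median 3) at 10 mg/kg, 0 to 11 (median 3) at 30 mg/kg and 0 to 5 (median 2.5) in WT libraries, so all 4 groups overlapped. Libraries with no count were 3 of 10, 2 of 7, 2 of 9 and 1 of 8 in the same order. Too few counts kept Prg2 out of the main test there, and without the count filter its log2 fold change was 0.97 ± 0.76 in knockout vehicle over WT (edgeR adjusted p = 0.343). Against vehicle it was 0.04 ± 0.98 at 10 mg/kg and -0.23 ± 0.90 at 30 mg/kg. The D77 vehicle mean of 1.68 TPM stood beside 0.439 TPM in the first-cohort vehicle group, a difference between separately prepared tables that was not tested.

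Epx (chromosome 11, 87864000 to 87875536, minus strand) had 4 counts summed over the anti-p40 libraries and 2 over the D77 vehicle libraries, a ratio of 2.02 whose counting interval ran from 0.29 to 22.3. Knockout vehicle had 0 counts in all 10 libraries, which allows up to 0.0117 CPM of the pooled total, and WT had 1 count. At 10 mg/kg there was 1 count and at 30 mg/kg there were 3 counts, in 1 library. No difference in eosinophil peroxidase was detectable at this depth. These intervals and limits cover counting error only.

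Rnase2a (chromosome 14, 51255262 to 51256112, minus strand) had 132, 117, 26, 124 and 138 counts in the 5 anti-p40 libraries, against 3, 1, 0, 2 and 1 counts in the 5 D77 vehicle libraries. Library by library this was 15.2, 10.4, 2.52, 15.3 and 16.8 TPM with anti-p40 and 0.34, 0.12, 0, 0.22 and 0.07 TPM with vehicle. Every anti-p40 library lay above every vehicle library, and anti-p40 library 3 was the lowest of its group. The log2 fold change was 6.16 ± 0.65 (edgeR adjusted p = 0.000369), and the authors' deposited table gives 6.26. The pooled counts, 537 with anti-p40 and 7 with vehicle, gave a 77.5-fold ratio with a counting interval from 37.4 to 194. Rnase2a passed the count filter through the anti-p40 group alone. It was called with each of the 10 libraries left out in turn, with log2 fold changes from 5.88 to 6.61.

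Outside the anti-p40 group Rnase2a was almost unread. Its summed count was 1 in knockout vehicle, 13 at 10 mg/kg, 4 at 30 mg/kg and 0 in WT, where 0 counts allow up to 0.0152 CPM of the pooled total. The 13 counts at 10 mg/kg were 4, 5 and 4 in 3 of 7 libraries, a pooled ratio to vehicle of 15.8 with a counting interval from 2.37 to 672. Without the count filter this comparison had an unadjusted p of 0.00969 and an edgeR adjusted p of 0.311. Against WT, whose libraries were all at 0, it was called without the filter (edgeR adjusted p = 0.00870, where 29.8% of 29076 genes were called). The anti-p40 effect minus the 30 mg/kg effect was 4.78 ± 2.80 on the log2 scale (edgeR adjusted p = 0.421), in a test where 1.65% of 18021 genes and 0 of the 7 tested members were called. limma voom called this difference (5.42, adjusted p = 0.00743). Both effects come from separate cohorts, so treatment and cohort cannot be told apart in it.

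Ear2 (chromosome 14, 44102654 to 44103534, plus strand) did not pass in the D77 cohort. Its counts were 23, 28, 3, 25 and 29 with anti-p40, against 3, 9, 5, 20 and 19 with D77 vehicle, and the levels averaged 2.24 ± 1.16 and 1.04 ± 0.714 TPM. Scaled for depth, 4 anti-p40 libraries lay above every vehicle library, and library 3, also the lowest for Rnase2a, lay below all of them. The log2 difference was 0.97 ± 0.58 (edgeR adjusted p = 0.270), and without anti-p40 library 3 it was 1.27 (adjusted p = 0.0803). In the annotated transcripts 41.5% of the 50-base words of Ear2 occur in other genes, among them Ear10 and Ear1, so its counts are uncertain, while no word of Rnase2a does. Of 10 granule protein and ribonuclease genes looked up, Prg2, Rnase2a and Ear2 were the 3 with enough counts to be tested in this cohort.

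Ear2 had low counts throughout the first cohort, and most knockout libraries stood above the WT median. Counts were 2 to 19 (median 10) in knockout vehicle, 0 to 42 (median 12) at 10 mg/kg, 0 to 26 (median 10) at 30 mg/kg and 0 to 8 (median 3) in WT libraries. In TPM the means were 1.10 ± 0.763, 1.20 ± 1.17, 0.973 ± 0.748 and 0.414 ± 0.332 in the same order. Knockout vehicle over WT, tested without the count filter because Ear2 did not pass it there, gave a log2 fold change of 1.57 ± 0.61 (edgeR adjusted p = 0.0591, where 28.5% of 27827 genes were called). DESeq2 put the adjusted p at 0.0250 and the authors' deposited table at 0.0178, so the call turns on the tool.

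Ear2 at 10 mg/kg passed against WT (log2 fold change 1.85 ± 0.75, edgeR adjusted p = 0.0413), in a comparison where 48.3% of genes were called, and did not pass against vehicle (0.29 ± 0.70). limma voom gave 1.17 with an adjusted p of 0.285 against WT. At 30 mg/kg Ear2 differed from vehicle by -0.04 ± 0.66 and from WT by 1.53 ± 0.72 (edgeR adjusted p = 0.0994, where 33.4% of genes were called). The high count of 42 at 10 mg/kg and that of 26 at 30 mg/kg each belonged to library 2 of the group.

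**Figure D2:**
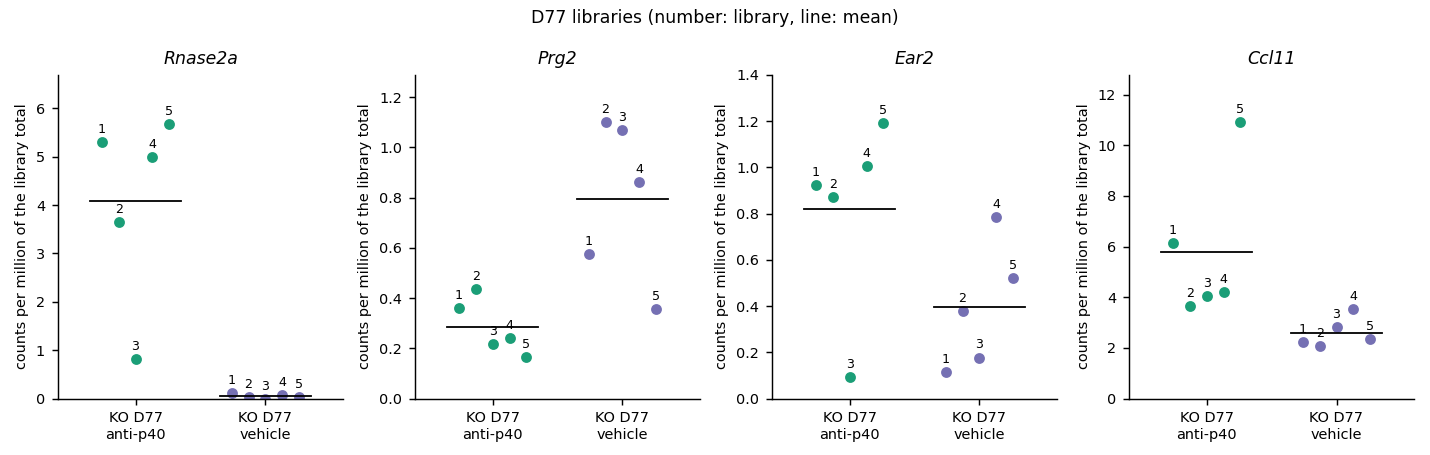
Counts relative to the library total (CPM) of Rnase2a, Prg2, Ear2 and Ccl11 in the anti-p40 and vehicle libraries of the D77 cohort, 1 numbered point per library, with a line at the group mean. Groups do not overlap for Rnase2a and Ccl11, and for Prg2 they overlap at vehicle library 5.

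Among the surface genes Siglecf (chromosome 7, 43351341 to 43359531, plus strand) was read in all 45 libraries. With anti-p40 it stood at 0.91, 0.60, 0.41, 0.58 and 0.78 TPM, against 1.37, 0.59, 0.79, 0.88 and 0.71 TPM with D77 vehicle. The groups overlapped, and at -0.39 ± 0.30 on the log2 scale Siglecf did not pass (edgeR adjusted p = 0.400). With 1 library left out it ran from -0.52 to -0.14, nearest 0 without vehicle library 1. In the first cohort the lowest, median and highest levels were 0.68, 1.37 and 2.82 TPM in knockout vehicle, 0.83, 2.02 and 3.03 TPM at 10 mg/kg, 0.51, 1.24 and 2.69 TPM at 30 mg/kg and 0.43, 0.97 and 1.67 TPM in WT libraries. Group means of TPM therefore ran in the order 10 mg/kg, vehicle, 30 mg/kg, WT, with overlapping neighbours throughout.

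Siglecf in knockout vehicle over WT had a log2 fold change of 0.60 ± 0.27 (edgeR adjusted p = 0.0758), with 3 of 10 knockout libraries above every WT library. Leaving out vehicle library 8 gave an adjusted p of 0.0446 and leaving out WT library 8 gave 0.0293, while the other 16 such fits did not call it. At 10 mg/kg Siglecf rose relative to WT (1.16 ± 0.33, edgeR adjusted p = 0.00424), with 5 of 7 libraries above every WT library. Against vehicle it was 0.58 ± 0.30 at 10 mg/kg (edgeR adjusted p = 0.481) and 0.10 ± 0.28 at 30 mg/kg (adjusted p = 0.999). As tuft cells also carry Siglec-F, their 8 markers were set beside it: they summed to 12.6 to 26.4 TPM in knockout vehicle, 8.22 to 39.1 TPM at 10 mg/kg and 11.6 to 18.7 TPM in WT libraries. Of the 8, Hpgds (0.43 ± 0.15) and Sh2d6 (1.6 ± 0.65) rose at 10 mg/kg over WT. There 48.3% of all genes were called in either direction, and 4169 of 17370 were called higher. Gfi1b (1.20 ± 0.38) and Sh2d6 (1.42 ± 0.50) rose in knockout vehicle over WT, the same share as the 25.2% of all genes called higher, and none of 6 tested was called with anti-p40. Their part in the Siglecf values was not tested.

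Ccr3 (chromosome 9, 124021972 to 124031689, plus strand) was too rare for the main test in every comparison. Its summed counts were 25 in knockout vehicle, 2 at 10 mg/kg, 12 at 30 mg/kg and 5 in WT, and 8 of the 12 at 30 mg/kg came from library 5. The pooled ratio of knockout vehicle to WT was 3.86 with a counting interval from 1.45 to 12.9, and that of 10 mg/kg to vehicle was 0.0973 (0.0112 to 0.390). Across libraries neither passed without the filter, with edgeR adjusted p of 0.160 and 0.325. In the D77 cohort Ccr3 had 7 counts with anti-p40 and 6 with vehicle.

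Il5ra (chromosome 6, 106710357 to 106749037, minus strand) had 37 summed counts with anti-p40 and 29 with D77 vehicle, a log2 difference of 0.30 ± 0.60 without the filter (edgeR adjusted p = 0.797). In the first cohort the sums were 58 in knockout vehicle, 107 at 10 mg/kg, 42 at 30 mg/kg and 43 in WT. Library 1 alone held 53 of the 107 at 10 mg/kg, and without it the log2 fold change against vehicle given next was 0.63. The log2 fold change against vehicle was 1.25 ± 0.70 at 10 mg/kg (edgeR adjusted p = 0.514) and -0.32 ± 0.69 at 30 mg/kg (adjusted p = 0.999), and 0.22 ± 0.63 in knockout vehicle over WT without the filter (adjusted p = 0.813).

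Ccl11 (chromosome 11, 82057823 to 82062955, plus strand) had the highest mean level of the 9 genes. It stood at 9.48, 5.54, 6.56, 6.67 and 16.8 TPM with anti-p40, against 3.44, 3.14, 4.21, 5.39 and 3.40 TPM with D77 vehicle. All 5 anti-p40 libraries lay above every vehicle library, and library 5 was far above the rest. Ccl11 rose with anti-p40 by a log2 fold change of 1.10 ± 0.32 (edgeR adjusted p = 0.0388), and the authors' deposited table gives 1.08 with an adjusted p of 0.00858. The edgeR call was lost without anti-p40 library 1 or 5 or without vehicle library 1, 2 or 5, where the adjusted p reached up to 0.0862. Without anti-p40 library 5 it was 0.73 (adjusted p = 0.0634), and limma voom gave 0.97 (adjusted p = 0.0581).

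Ccl11 in knockout vehicle libraries stood at 1.40, 2.53 and 7.35 TPM (lowest, median, highest), against 5.85, 7.42 and 8.29 TPM in WT libraries. Of the 10 knockout libraries 9 lay below every WT library, and library 8 lay within the WT range. Ccl11 fell by 1.02 ± 0.26 on the log2 scale (edgeR adjusted p = 0.00440), and the call held with each of the 18 libraries left out in turn. On log2(TPM + 1), where the median over all genes was -0.16 in place of -0.01 and 26.5% in place of 51.3% of called genes were higher, Ccl11 was at -1.08.

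Ccl11 did not pass against vehicle at either dose of compound 13. It stood at 0.69 to 7.63 TPM at 10 mg/kg (mean 3.57 ± 2.57, n = 7) and at 0.57 to 8.57 TPM at 30 mg/kg (mean 3.17 ± 2.39, n = 9), against 3.13 ± 1.81 in vehicle libraries (SD, n = 10). The log2 fold changes against vehicle were 0.26 ± 0.47 and 0.16 ± 0.44, each smaller than its standard error. Against WT they were -0.76 ± 0.44 (edgeR adjusted p = 0.154) and -0.85 ± 0.41 (adjusted p = 0.109), and limma voom called the second (-1.23, adjusted p = 0.0127). At 10 mg/kg over WT 1 of 4 alternative fits also called Ccl11, with log2 fold changes from -1.11 to -0.77 over these fits.

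Ccl11 is known as a product of gut fibroblasts, so stromal markers were set beside it. In knockout vehicle 6 of 7 fibroblast markers and 7 of 7 smooth muscle markers fell relative to WT (23.9% of all genes tested were called lower), with median log2 fold changes of -0.79 and -1.28 beside -0.01 for all genes. Fibroblast markers summed to 206 to 612 TPM in knockout vehicle and 424 to 781 TPM in WT libraries. With anti-p40 6 of 7 smooth muscle markers rose (median 1.19, all genes 0.01, with 8.35% of all genes called higher) and 0 of 7 fibroblast markers was called (median -0.070). Smooth muscle markers summed to 2970 to 7473 TPM with anti-p40 and 929 to 2799 TPM with D77 vehicle, and fibroblast markers to 557 to 710 and 394 to 1060 TPM. The part of muscle and stroma in the Ccl11 values was not tested.

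**Figure D3:**
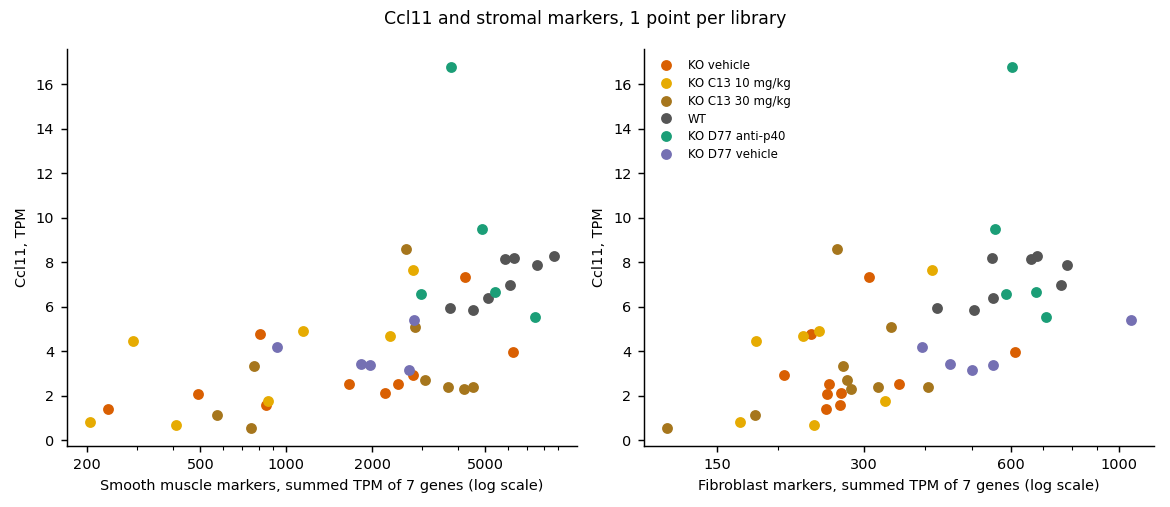
Ccl11 level in TPM (linear axis) against the summed level of 7 smooth muscle markers (left) and of 7 fibroblast markers (right) in TPM on log axes, 1 point per library, coloured by group. WT and anti-p40 libraries lie at 2970 TPM or more of muscle markers, and the D77 vehicle libraries at 2799 TPM or less.

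Ccl24 (chromosome 5, 135569937 to 135573049, minus strand), known as a macrophage product, passed in no comparison. It stood at 11.8, 3.31, 3.97, 2.99 and 10.2 TPM with anti-p40, against 6.98, 2.61, 1.25, 4.37 and 2.68 TPM with D77 vehicle. The groups overlapped, with anti-p40 libraries 1 and 5 the highest, and the log2 fold change was 0.78 ± 0.40 (edgeR adjusted p = 0.206), or 0.45 without anti-p40 library 1 and 1.06 without vehicle library 1. Means in the first cohort were 3.04 ± 1.73 TPM in knockout vehicle, 3.63 ± 2.76 TPM at 10 mg/kg, 2.26 ± 2.13 TPM at 30 mg/kg and 2.40 ± 1.39 TPM in WT libraries. The log2 fold change was 0.41 ± 0.38 in knockout vehicle over WT (edgeR adjusted p = 0.382), 0.32 ± 0.50 at 10 mg/kg over vehicle and -0.20 ± 0.47 at 30 mg/kg over vehicle.

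**Figure D4:**
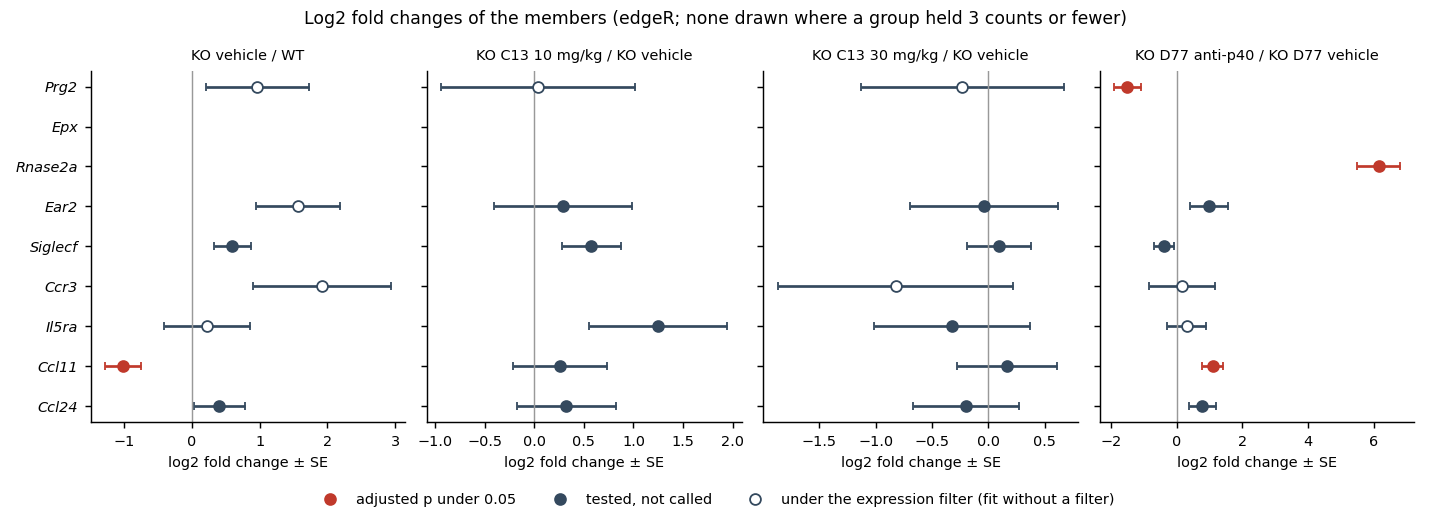
Log2 fold change of each gene in the 4 comparisons with its standard error, in red where edgeR called it, in dark blue where tested and not called, and open where read from the fit without the count filter. Points are left out where either group had 3 or fewer summed counts, and the called points are Rnase2a, Prg2 and Ccl11 with anti-p40 and Ccl11 in knockout vehicle.

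CCR3 has further ligands, of which Ccl5 and Ccl7 ran opposite to Ccl11. Of 5 ligands tested in knockout vehicle over WT, Ccl5 (log2 fold change 3.25 ± 0.53, edgeR adjusted p = 0.000134) and Ccl7 (2.62 ± 0.50, adjusted p = 0.000459) rose while Ccl11 fell. The background of genes called higher was 25.2% and lower 23.9%. With anti-p40 Ccl11 rose and Ccl5 (-2.82 ± 0.68, edgeR adjusted p = 0.0186) and Ccl7 (-2.0 ± 0.49, adjusted p = 0.0195) fell, against a background of 8.35% higher and 8.32% lower. Ccl5 was at 5.61, 13.2, 2.10, 9.22 and 18.9 TPM with anti-p40 and at 53.3, 42.2, 151, 41.7 and 14.6 TPM with D77 vehicle. Ccl5 and Ccl7 also attract monocytes and T cells. Ccl28, a mucosal epithelial chemokine, did not pass in either (0.26 ± 0.12 and -0.24 ± 0.15). Over WT, Ccl5, Ccl7 and Ccl28 were called higher at both doses of compound 13, and no ligand was called lower. Ccl28 was at 0.41 ± 0.14 at 10 mg/kg (edgeR adjusted p = 0.0160) and 0.45 ± 0.13 at 30 mg/kg (adjusted p = 0.00871). Of all genes 48.3% and 33.4% were called in these comparisons.

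**Figure D5:**
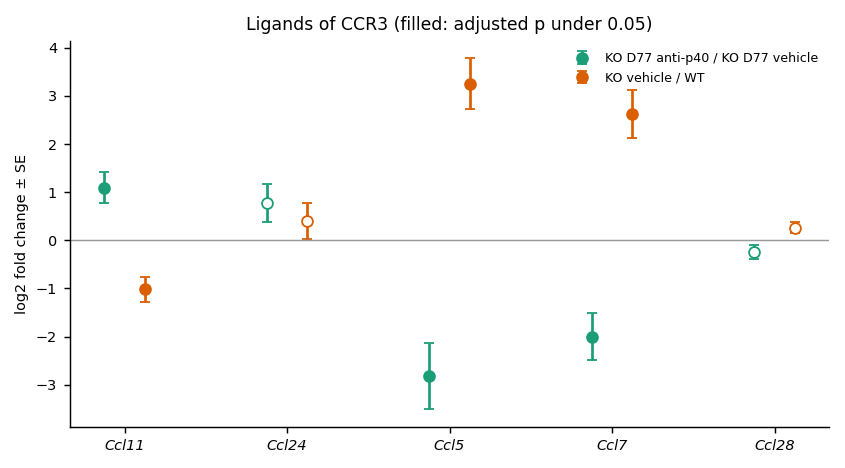
Log2 fold change with its standard error of 5 CCR3 ligands, for anti-p40 over D77 vehicle (green) and knockout vehicle over WT (orange), filled where called. Ccl5 and Ccl7 are above 0 in knockout vehicle and below 0 with anti-p40, and Ccl11 runs the other way.

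Receptor and surface genes that eosinophils share with other myeloid cells rose in knockout vehicle, 11 of 12 tested against 25.2% of all genes, with a median log2 fold change of 0.84. The smallest adjusted p belonged to Csf2rb, the common beta chain of the interleukin 3, interleukin 5 and GM-CSF receptors (1.82 ± 0.29, edgeR adjusted p = 0.000104), to Il1rl1, the interleukin 33 receptor (3.55 ± 0.57, adjusted p = 0.000118), and to Csf2ra (0.93 ± 0.16, adjusted p = 0.000167). With anti-p40 7 of 12 fell, against 8.32% of all genes, and 0 rose (median -0.75), led by Adgre1 (-0.74 ± 0.13, edgeR adjusted p = 0.00432), Itgb7 (-1.04 ± 0.24, adjusted p = 0.0160) and Csf2rb (-0.83 ± 0.22, adjusted p = 0.0247). Il5ra and Ccr3 had too few counts to be tested in either comparison.

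Markers of other cells moved with those receptor genes, and Adgre1 belongs to both the receptor list and the macrophage list. In knockout vehicle over WT 8 of 10 macrophage and monocyte, 4 of 4 tested neutrophil and 3 of 4 tested mast cell markers rose (25.2% of all genes). Among these were Ly6c2 (2.45 ± 0.31), Ccr2 (2.10 ± 0.32), S100a8 (8.92 ± 1.76) and the mast cell protease gene Mcpt1 (3.87 ± 0.61). The macrophage markers not called were Cd163 (-1.49 ± 0.64, edgeR adjusted p = 0.0617) and Mrc1 (-0.18 ± 0.17, adjusted p = 0.407). With anti-p40 7 of 10, 3 of 4 and 2 of 5 fell (8.32% of all genes), with Ly6c2 at -2.25 ± 0.22, Ccr2 at -2.28 ± 0.30, S100a8 at -8.40 ± 1.23 and Mcpt1 at -1.94 ± 0.61. Macrophage markers summed to 495 to 691 TPM with anti-p40 and 835 to 1488 TPM with D77 vehicle, without overlap, and to 527 to 1604 TPM in knockout vehicle and 368 to 595 TPM in WT libraries. Basophil markers summed to at most 1.5 TPM in any library. The part of these cells in the results was not tested.

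The type 2 list gave a mixed picture in knockout vehicle, where 7 of 10 tested genes rose and 1 fell (median 0.96), beside 25.2% and 23.9% of all genes. Ccl22 (3.01 ± 0.30, edgeR adjusted p = 1.88e-06) and Ccl17 (3.06 ± 0.44, adjusted p = 4.92e-05), chemokines for CCR4, and Retnlb (5.78 ± 0.84, adjusted p = 6.69e-05), a goblet cell protein, led the rise. Retnla, which encodes resistin-like alpha and is induced by interleukins 4 and 13, was the 1 that fell (-1.57 ± 0.42, edgeR adjusted p = 0.00539).

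With anti-p40 2 of 11 tested type 2 genes rose and 3 fell, beside 8.35% and 8.32% of all genes. Retnla had 446, 598, 196, 633 and 454 counts with anti-p40, against 73, 135, 3, 45 and 57 with D77 vehicle, without overlap (2.85 ± 0.62, edgeR adjusted p = 0.0122). Clca1, a goblet cell product, was at 3879, 4948, 3758, 3105 and 5533 TPM with anti-p40 and at 1625, 463, 159, 303 and 922 TPM with vehicle (2.57 ± 0.51, adjusted p = 0.00871). Both stood above every D77 vehicle library, and library 3 was again the lowest anti-p40 library for Retnla. In the first cohort Clca1 was at 1557 to 3443 TPM in WT and at 886 to 4830 TPM in knockout vehicle libraries. Levels of the 2 cohorts were not tested against each other. Il4ra (-1.14 ± 0.18, edgeR adjusted p = 0.00294), the receptor chain for interleukins 4 and 13, Gata3 (-1.43 ± 0.36, adjusted p = 0.0213), the regulator of type 2 lymphocytes, and Il13ra1 (-0.58 ± 0.18, adjusted p = 0.0483) fell.

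Most cytokines that drive eosinophils were close to the limit of detection. Il33 was not, with a mean of 3.95 scaled CPM in knockout vehicle and 4.22 scaled CPM in WT. Of 9 growth and alarm cytokines 2 were tested in knockout vehicle over WT and 1, Il33, with anti-p40 (0.14 ± 0.32), and none was called. Il13, chosen after its values were seen, had 9, 36, 2, 12 and 15 counts with anti-p40, against 3, 1, 0, 0 and 1 with D77 vehicle, and without the count filter rose by 3.66 ± 0.80 on the log2 scale (edgeR adjusted p = 0.0102, where 7.88% of 28559 genes were called). Il5 had 7, 9, 0, 3 and 2 counts with anti-p40 and 2, 0, 0, 0 and 4 with vehicle (edgeR adjusted p = 0.323). At 10 mg/kg over WT, also without the filter, Il5 was called lower (-3.13 ± 1.19, edgeR adjusted p = 0.0448). Its counts were at most 4 in any WT library. Csf2 was called higher there (3.59 ± 1.10, edgeR adjusted p = 0.0125), where 29.8% of 29076 genes were called. Library 3 of the anti-p40 group held the fewest counts of Il13, Rnase2a, Ear2 and Retnla in that group. In TPM it was also the lowest of them for Siglecf and Ccl5, and not for Ccl11, Ccl24 or Clca1. Nor did it hold the fewest counts of Prg2.

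Eosinophil transcription factors and adhesion partners are shared with other leukocytes and endothelium. In knockout vehicle Spi1 (PU.1, 1.33 ± 0.20) and Xbp1 (0.45 ± 0.11) rose, and Trib1 (-0.25 ± 0.09) and Cebpa (-0.16 ± 0.06) fell, of 6 tested, near the shares of all genes (25.2% higher and 23.9% lower). With anti-p40 Spi1 (-1.0 ± 0.22) and Xbp1 (-0.47 ± 0.13) fell and none rose (all genes 8.32% lower). Of 6 adhesion genes Icam1 (1.27 ± 0.24), Vcam1 (1.01 ± 0.22), Itgam (1.18 ± 0.28), Madcam1 (0.89 ± 0.29) and Selp (0.99 ± 0.38) rose in knockout vehicle, while Itgam (-1.39 ± 0.30) and Icam1 (-0.89 ± 0.21) fell with anti-p40. No gene of any list was called at 10 or 30 mg/kg of compound 13 against vehicle.

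Over the 26 first-cohort knockout libraries, with each group's median subtracted, the members with enough signal had low rank correlations with each other. Spearman's rho between pairs of Siglecf, Ear2, Ccl11 and Ccl24 ran from -0.24 to 0.15. The genes of most similar pattern among 14186 were Casp4 (0.89), Gtpbp2 (0.83) and Bend7 (0.80) for Siglecf, Ighg1 (0.79), Cxcl3 (0.72) and Prss22 (0.68) for Ccl24, Kcnip4 (0.72), Iscu (0.68) and Il17d (0.67) for Ccl11, and Glod5 (0.66), Atp5mpl (0.57) and Defb1 (0.56) for Ear2. These libraries share depth and tissue makeup, and the values are a description.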

How the data were processed

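Poly(A)-enriched RNA of mouse distal colon was sequenced, per the labels' protocols. The authors deposited estimated counts per gene with no normalization. Among nonzero entries 17.1% (first cohort) and 20.4% (D77 cohort) were not whole. The authors also deposited TPM for the same libraries. Per the file headers, the authors' comparison tables hold log2 fold changes with a p-value and an adjusted p-value. Per the submitters' processing notes, the tools were RSEM 1.3.3, STAR 2.7.8a, DESeq2 1.30.1 and cutadapt 3.7 with build mm10, with no role stated. The sources used here give neither annotation nor strandedness.

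Of 50600 gene identifiers 50376 matched GENCODE M21 (GRCm38) and 224 did not. Estimated counts were rounded and tested with edgeR 4.0.16 under R 4.3.3 (quasi-likelihood, robust, TMM over the libraries of each fit, its expression filter by group). Benjamini-Hochberg adjustment ran over all genes tested, with calls at 0.05. A standard error is the log2 fold change divided by the root of its F statistic. Both vehicle comparisons of compound 13 came from 1 fit of the knockout libraries. Genes under the filter were read from a fit without it. Low counts were pooled by group with exact Poisson or binomial intervals (95%), and 0 counts were given a limit of 3 counts. Alternatives were DESeq2 1.42.0, limma 3.58.1 (voom, and log2(TPM + 1) for genes with a mean of at least 0.5 TPM), other scaling, no filter, and each library left out. The fits were tested on simulated data. Promoters came from RefSeq's table on GRCm38.p6.

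The 9 genes and all gene lists were chosen with earlier results of these data known. From each list the text names every called gene up to 6, otherwise the 3 of smallest adjusted p, and for cell marker lists a few of these. Similar genes are the 3 of highest Spearman correlation of TPM (mean of at least 1 TPM). One library with contradictory dose labels was left out of all comparisons.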

Additional observations from a re-analysis of the deposited data

Results flagged for a closer look

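In 7 of 40 sets of a gene and a group with at least 10 summed counts, 1 library stood far from the rest by Dixon's criterion. For normally distributed values chance meets it in about 1 in 20 sets. Values from low counts need not be normally distributed, so that rate may not hold here. These were Ccr3 in library 5 of the 30 mg/kg group (0.324 CPM of the total count), Il5ra in library 1 of the 10 mg/kg group (1.53 CPM) and Ear2 in library 2 of the 30 mg/kg group (1.01 CPM). Ear2 was also high in library 2 of the 10 mg/kg group (1.33 CPM) and low in library 3 of the anti-p40 group (0.0936 CPM). Ccl11 was high in library 8 of the knockout vehicle group (4.91 CPM) and in library 2 of the 30 mg/kg group (6.04 CPM).

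The anti-p40 effect differed from the 30 mg/kg effect, by an interaction test in edgeR over both cohorts, for the type 2 genes Clca1 (2.34 on the log2 scale) and Il4ra (-0.95), the monocyte markers Ly6c2 (-2.25) and Ccr2 (-1.87) and the colonocyte enzyme gene Car1 (3.23). Their edgeR adjusted p ran from 0.00213 to 0.0427, in a test where 1.65% of 18021 genes were called. Each effect comes from its own cohort, so treatment and cohort cannot be told apart in these differences.

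The library with contradictory dose labels had 6 counts of Epx (0.171 CPM), above the 0.0390 CPM of the highest WT or knockout vehicle library and the 0.117 CPM (3 counts) of the highest library at 10 or 30 mg/kg.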

How the results depend on the processing

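Rnase2a with anti-p40 (5.88 to 6.61 on the log2 scale) and Ccl11 in knockout vehicle over WT (-1.27 to -0.94) were called with each library left out in turn. Over all 16 alternative fits, left-out libraries included, Rnase2a with anti-p40 was called each time, with a lowest log2 fold change of 3.31. Ccl11 with anti-p40 ran from 0.73 to 1.23 and Prg2 from -1.73 to -1.32 (-0.69 on log2(TPM + 1)), with calls lost as given above, and limma voom put Ccl11 at 0.97. Ear2 at 10 mg/kg over WT was not called by limma voom (1.17) or without the count filter (1.85). Against vehicle, uncalled values changed sign. At 30 mg/kg these were Ccl11 (-0.068 on log2(TPM + 1), -0.074 with voom, -0.25 to 0.41 with libraries left out), Siglecf (-0.16, -0.043, and -0.18 to 0.19) and Ear2 (-0.44 to 0.13). At 10 mg/kg they were Ccl24 (voom -0.022, libraries left out -0.076 to 0.52) and Ear2 (-0.35, and -0.42 to 0.52). Ccl24 at 30 mg/kg over WT was -0.018 with voom, and the Epx difference of treatment effects was 0.13 with DESeq2. The causes were not tested. Genes called at 10 mg/kg were 66 with DESeq2, 20 on log2(TPM + 1), 1 with the contradictory library added at 30 mg/kg and 1 to 18 with libraries left out. At 30 mg/kg DESeq2 called 3 and libraries left out gave 0, and DESeq2 called 640 for the difference of treatment effects. With anti-p40 1637 to 2515 genes were called with libraries left out, the lowest without anti-p40 library 2, and 7171 to 9092 in knockout vehicle over WT. Calls that were higher made up 47.1% in place of 58.6% at 30 mg/kg over WT with voom, and 4 of 20 in place of 1 of 2 at 10 mg/kg over vehicle on log2(TPM + 1). No paired analysis was possible because replicate numbers follow the deposited order. Few counts limit Epx, Ccr3, Prg2, Il5ra and first-cohort Rnase2a.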
